A study of Homo sapiens with 9 samples.

Results

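The transcripts described here encode 10 proteoglycan core proteins, and they were 10 of the 22290 genes in a table of RNA levels from human neuroblastoma cells. Biglycan (BGN) was chosen by its rlog values: its increase in the libraries labelled TRAP-1 overexpression, measured against the parental libraries, is among the largest in the table. The other 9 were named with it as proteoglycans of the extracellular matrix or the cell surface: versican (VCAN), perlecan (HSPG2), agrin (AGRN), the syndecans SDC1, SDC2, SDC3 and SDC4, and the glypicans GPC1 and GPC4. All 10 had a value in every library, and no filter on low values was applied to them.

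The study sequenced RNA from IMR-32, an established neuroblastoma line that the labels place under brain tissue, to ask how the mitochondrial chaperone TRAP-1 shapes gene expression. There were 3 libraries of parental cells with the genotype WT, 3 of cells labelled TRAP1 knockdown (KD) and 3 of cells labelled TRAP1 overexpression (OE), and no drug or other treatment is named for any of them. Both engineered lines had been made earlier, and neither how the KD line was made nor whether each line is a single clone is given. The labels name no empty-vector line among the 9 libraries, so the effects of the manipulation of TRAP-1 and of making a stable line cannot be told apart. The 3 libraries of a group came from triplicate RNA isolations that are not said to be separate cultures, so every p-value below measures spread between such samples.

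The values are regularised log2 (rlog) levels that the authors computed with DESeq2 from read counts, with library depth already scaled out and the differences of weakly expressed genes pulled towards 0. They ranged from 0.14 to 18.5 with a median of 7.05. The methods name a sequencing depth for the study as a whole, but rlog values do not keep the read total of each library, so the depth behind each value is unknown. A difference below is a difference of mean rlog values, and it understates the log2 fold change, most of all at low levels. In bulk RNA, fewer cells of a type and less RNA per cell cannot be told apart.

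TRAP1 itself had rlog values of 10.67, 10.66 and 10.65 in the parental libraries, 10.79, 10.79 and 10.83 in those labelled KD, and 10.67, 10.63 and 10.74 in those labelled OE. All 3 libraries labelled KD lay above every parental and OE-labelled library, which goes against the label, and the OE-labelled libraries overlapped the parental ones. In limma the difference for KD was 0.14 ± 0.025 (SE, n = 3 per group, adjusted p = 1.8e-05), and that for OE was 0.018 with a 95% confidence interval from -0.033 to 0.069. With the median of genes in the same 20-Mb block of the chromosome removed, the OE difference was 0.060 and was called (limma adjusted p = 0.0495). Of the exonic bases of TRAP1, 28.5% are shared with neighbouring genes, DNASE1 among them, and the kit does not mark strand. The groups are therefore called by their labels throughout.

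Markers of the adrenergic neuroblastoma lineage were checked next. Of 13 such genes 10 had values, and several defining markers were near the floor of the table: PHOX2A lay at 1.30 to 1.40 over the 9 libraries, TH at 2.65 to 2.85 and MYCN, which is amplified in IMR-32, at 2.46 to 2.61. DBH, DDC and TBX2 had no value and were not analysed here. ISL1, GATA2, GATA3 and HAND2 had parental means of 9.37, 9.27, 7.25 and 6.36. The markers thus went only partly with the labelled cell type.

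Proteoglycans are core proteins that carry long sulfated sugar chains, either heparan sulfate or chondroitin and dermatan sulfate, which bind growth factors, proteases and other matrix molecules. Biglycan, versican, perlecan and agrin are secreted into the matrix, syndecans span the cell membrane, and glypicans are held on its outer face by a lipid anchor. In neural tissue, including neuroblastoma, they take part in cell adhesion, axon growth and the presentation of heparin-binding growth factors to receptors.

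In the libraries labelled KD, limma called 5 of the 10 members higher than parental and 5 lower at an adjusted p under 0.05, against 26.9% and 26.9% of all 22290 genes. BGN, VCAN, AGRN, SDC1 and SDC3 were higher, and HSPG2, SDC2, SDC4, GPC1 and GPC4 were lower. For all 10, the KD-labelled and parental libraries did not overlap, which held for 59.2% of all genes. The median size of the members' differences, whatever their sign, was 0.19 against 0.081 over all genes. Of the 10, 9 had a mean above the table's median level, whereas the background covers genes of every level. BGN is counted here too, although its parental values were part of what chose it, so nothing is read from its own place.

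In the libraries labelled OE, the contrast that chose BGN, 5 members including BGN passed the same threshold as higher than parental and 3 as lower, beside 16.9% and 18.0% of all genes, and the groups did not overlap for 7, beside 43.2%. These counts draw on the values that chose BGN, so they are a description from which nothing is read, and no p is given for single members in this contrast. With each library centred on its median, the 3762 genes called higher and 4002 called lower in this contrast became 2963 and 5212, which moved the higher share from 48.5% to 36.2%. Between the OE- and KD-labelled libraries directly, 5 members were higher under OE and 3 lower, beside 23.5% and 23.8% of all genes, and 7 did not overlap, beside 54.1%. BGN, chosen by its OE values, is among those 5 and those 7, so nothing is read from these counts either. The KD and OE comparisons share the same 3 parental libraries.

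**Figure D1:**
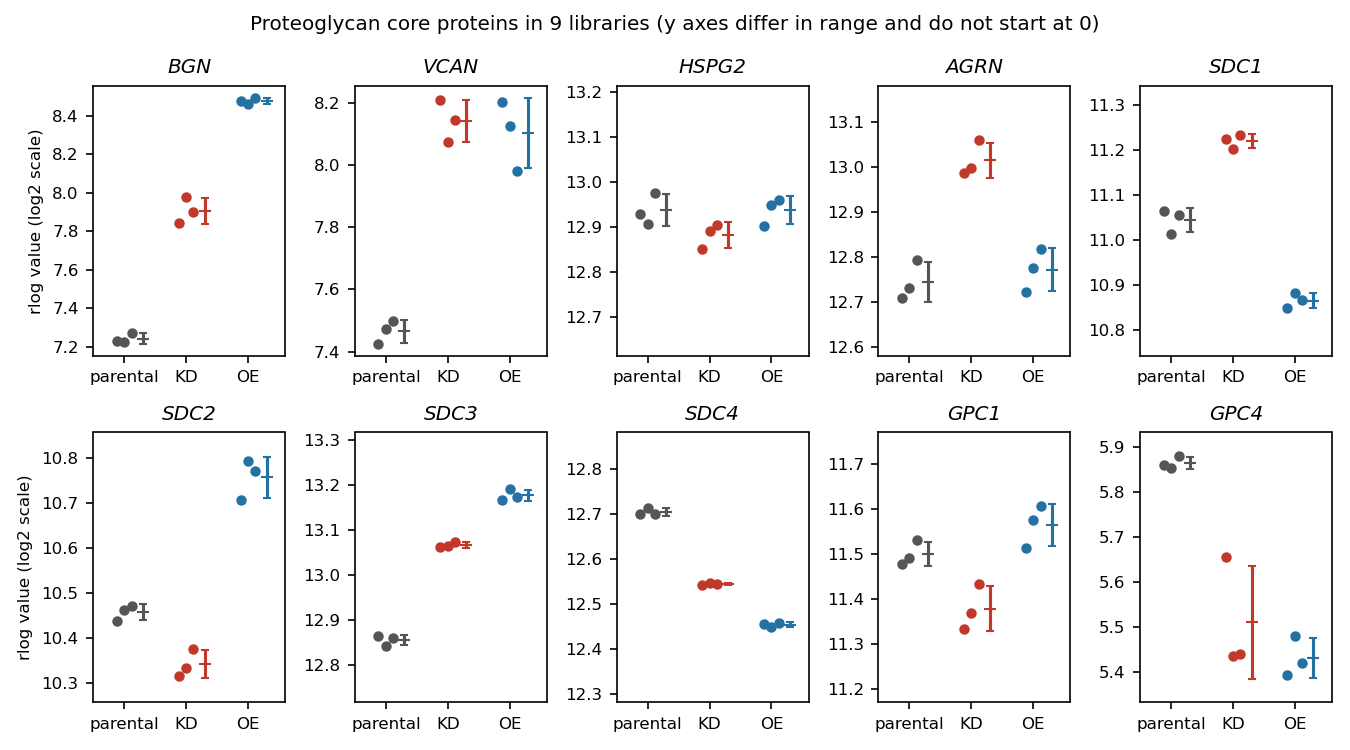
rlog values (log2 scale) of the 10 proteoglycan transcripts in each of the 9 libraries. Points are single libraries and the bars beside them give the mean and SD of the 3 libraries of a group; axis ranges differ between genes. BGN rises from 7.24 in the parental mean to 8.48 in OE, while SDC4 runs from 12.70 down to 12.45.

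Among the matrix proteoglycans, biglycan is a small leucine-rich protein with chondroitin or dermatan sulfate chains that binds collagen. BGN (ENSG00000182492) had rlog values of 7.23, 7.23 and 7.27 in the parental libraries, 7.84, 7.98 and 7.90 in those labelled KD, and 8.48, 8.46 and 8.49 in those labelled OE. The 3 groups were fully separated, with KD between parental and OE. The difference for KD was 0.66 ± 0.040 (SE, n = 3 per group), higher in 3 of 3 libraries, and 319 of the 22290 genes had a larger one. Since the parental values were part of what chose BGN, this difference is a description and no p is given for it. The difference for OE, which chose the gene, was 1.23 ± 0.040, and that between OE and KD was 0.57 ± 0.040. In the whole table, 4 genes had a larger one in OE. Around it among genes with a symbol stood PPFIA4 at 1.28 and ABCA8 at 1.36 above, and NRN1 at 1.12 and ADAMTS4 at 1.09 below.

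Versican is a large chondroitin sulfate proteoglycan that binds hyaluronan through its amino-terminal domain. VCAN (ENSG00000038427) stood at 7.43, 7.47 and 7.50 in the parental libraries, 8.21, 8.07 and 8.14 in the KD-labelled and 8.20, 8.12 and 7.98 in the OE-labelled ones. All 6 engineered libraries lay above the parental ones, and the KD and OE groups overlapped each other. The difference was 0.68 ± 0.046 in KD (SE, limma adjusted p = 3.7e-14) and 0.64 ± 0.046 in OE. Between OE and KD it was -0.041, with a 95% confidence interval from -0.14 to 0.054 (limma adjusted p = 0.514), and without OE replicate 3 it was 0.020. Of its exonic bases, 3.09% overlap the antisense gene VCAN-AS1, whose reads cannot be separated here.

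The sequences just upstream of 3 of the members that moved one way in both engineered lines are shown, BGN and VCAN as the largest increases and SDC4 as the most abundant per length, from RefSeq on GRCh38.p14, with GC boxes (GGGCGG on either strand) in capitals. They are chrX:153494730-153494979 (plus strand, 250 bases), chr5:83471494-83471617 (plus strand, the 124 bases before the annotated gene) and chr20:45348425-45348674 (minus strand, 250 bases), each 5′ to 3′:
BGN: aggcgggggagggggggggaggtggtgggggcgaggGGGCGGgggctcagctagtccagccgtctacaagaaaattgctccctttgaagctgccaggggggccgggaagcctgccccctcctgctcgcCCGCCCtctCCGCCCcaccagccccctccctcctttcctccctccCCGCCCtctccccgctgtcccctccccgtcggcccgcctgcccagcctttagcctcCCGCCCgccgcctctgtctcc
VCAN: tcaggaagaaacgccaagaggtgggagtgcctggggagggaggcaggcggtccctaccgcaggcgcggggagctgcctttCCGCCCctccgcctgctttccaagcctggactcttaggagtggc
SDC4: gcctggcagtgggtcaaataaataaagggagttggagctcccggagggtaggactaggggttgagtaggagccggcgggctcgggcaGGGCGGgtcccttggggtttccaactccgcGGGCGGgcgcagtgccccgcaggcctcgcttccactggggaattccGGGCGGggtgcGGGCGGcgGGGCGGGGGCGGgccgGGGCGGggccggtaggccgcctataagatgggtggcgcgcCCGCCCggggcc
BGN holds 5 matches, VCAN 1 and SDC4 8, some of which abut each other. SDC3, also higher in both lines, holds 5, and GPC4, also lower in both, holds 2. RefSeq windows of 250 bases before a transcript start were found for 8 of the 10 members, 9 in all since SDC1 has a pair of starts, and AGRN and SDC2 had none. Part of the VCAN window and all of the second SDC1 window lie inside the annotated gene, since GENCODE places its start farther upstream. A GC box was in 9 of the 9, against 42.6% of all 35116 promoters of that length. The AP-1 letters TGANTCA (6.57% of promoters), the hypoxia-response core ACGTG (18.5%) and the TATA letters TATAAA (10.7%), searched on both strands, were in 0 of the 9. A match is a run of letters and not a measured binding site.

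Perlecan is the large heparan sulfate proteoglycan of basement membranes. HSPG2 (ENSG00000142798) had values of 12.93, 12.91 and 12.98 in the parental, 12.85, 12.89 and 12.90 in the KD-labelled and 12.90, 12.95 and 12.96 in the OE-labelled libraries. The KD libraries lay just below the parental ones, while OE overlapped both. The difference in KD was -0.054 ± 0.018 (SE, limma adjusted p = 0.0128), the smallest of the 10, and the call was lost in 4 alternatives. Its adjusted p was 0.106 without a variance trend, 0.13 with the median of the 20-Mb block removed, 0.138 without parental replicate 3 and 0.109 without KD replicate 1. The difference between OE and KD was 0.054 (limma adjusted p = 0.0148), and it lost its call without a variance trend (0.117) or without KD replicate 1 (0.121), OE replicate 2 (0.0652) or OE replicate 3 (0.0818). LDLRAD2, on the other strand, shares 11.7% of its exonic bases.

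Agrin, a heparan sulfate proteoglycan that clusters acetylcholine receptors at the neuromuscular junction, moved in the KD-labelled line. AGRN (ENSG00000188157) stood at 12.71, 12.73 and 12.79 in the parental libraries, 12.99, 13.00 and 13.06 under KD and 12.72, 12.78 and 12.82 under OE. All 3 KD libraries were above all others, and the OE and parental libraries overlapped. The difference was 0.27 ± 0.021 in KD (SE, limma adjusted p = 1.4e-12) and 0.027 ± 0.021 in OE, and OE was lower than KD by a difference of -0.24 (limma adjusted p = 2.5e-11). With the 20-Mb block median removed the OE difference was 0.065, and AGRN then joined the members counted as higher in OE. An overlapping gene without a symbol shares 3.74% of its exonic bases. Its receptor LRP4 fell in KD (-0.13, limma adjusted p = 0.00371), and the kinase MUSK was near the floor at a parental mean of 0.60.

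Syndecans carry heparan sulfate outside the membrane and bind adaptors such as syntenin and CASK inside it. SDC1 (ENSG00000115884), typical of epithelia and plasma cells, had values of 11.06, 11.01 and 11.06 in the parental libraries, 11.23, 11.20 and 11.24 in the KD-labelled and 10.85, 10.88 and 10.87 in the OE-labelled ones. The KD libraries were above and the OE libraries below the parental range, with no overlap. The difference was 0.18 ± 0.022 in KD (SE, limma adjusted p = 2.5e-08), -0.18 ± 0.022 in OE, and -0.35 ± 0.022 between OE and KD (adjusted p = 3.7e-15).

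SDC2 (ENSG00000169439), a syndecan of mesenchymal and neural cells that is found at dendritic spines, ran the other way. It stood at 10.44, 10.46 and 10.47 in the parental libraries, 10.32, 10.33 and 10.38 under KD and 10.71, 10.79 and 10.77 under OE. All KD libraries were below and all OE libraries above the parental ones. The difference was -0.12 ± 0.026 in KD (SE, limma adjusted p = 2.8e-04), 0.30 ± 0.026 in OE, and 0.41 ± 0.026 between OE and KD (adjusted p = 4.4e-15).

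SDC3 and SDC4 each moved one way in both lines. SDC3 (ENSG00000162512), the syndecan most abundant in the nervous system, had 12.87, 12.84 and 12.86 in the parental, 13.06, 13.07 and 13.07 in the KD-labelled and 13.17, 13.19 and 13.17 in the OE-labelled libraries. SDC4 (ENSG00000124145), a component of focal adhesions, had 12.70, 12.71 and 12.70, then 12.54, 12.55 and 12.54, then 12.45, 12.45 and 12.46. For both genes the 3 groups were fully separated, with KD between parental and OE, and SDC3 was high where SDC4 was low. SDC3 was higher by 0.21 ± 0.014 in KD (SE, limma adjusted p = 3.4e-14) and 0.32 ± 0.014 in OE, and OE exceeded KD by 0.11 (adjusted p = 1.0e-07). SDC4 differed by -0.16 ± 0.015 in KD (SE, limma adjusted p = 1.3e-10) and -0.25 ± 0.015 in OE. The further difference of SDC4 between OE and KD was -0.091 (limma adjusted p = 7.8e-06), and it shrank to -0.020 (adjusted p = 0.275) with the 20-Mb block median removed.

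Glypicans modulate the signalling of Wnt, Hedgehog and FGF ligands. GPC1 (ENSG00000063660) had values of 11.48, 11.49 and 11.53 in the parental, 11.33, 11.37 and 11.43 in the KD-labelled and 11.51, 11.58 and 11.61 in the OE-labelled libraries. The KD libraries were lowest, and the parental and OE ranges overlapped. The difference was -0.12 ± 0.024 in KD (SE, limma adjusted p = 8.0e-05), 0.065 ± 0.024 in OE, and 0.19 between OE and KD (adjusted p = 9.8e-08). GPC1 left the count of members higher in OE in 6 alternatives: without a variance trend, with median centring (0.047), and without parental replicate 1 (0.055), parental replicate 2 (0.061), OE replicate 2 (0.060) or OE replicate 3 (0.045).

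GPC4 (ENSG00000076716), which promotes synapse formation when released by astrocytes, was the weakest of the 10. Its values were 5.86, 5.85 and 5.88 in the parental libraries, 5.66, 5.44 and 5.44 under KD and 5.39, 5.48 and 5.42 under OE. All engineered libraries were below the parental ones, KD replicate 1 lay nearest to them, and the KD and OE groups overlapped. The difference was -0.35 ± 0.052 in KD (SE, limma adjusted p = 6.3e-07) and -0.43 ± 0.052 in OE. Between OE and KD it was -0.079, with a 95% confidence interval from -0.19 to 0.028 (limma adjusted p = 0.229).

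**Figure D2:**
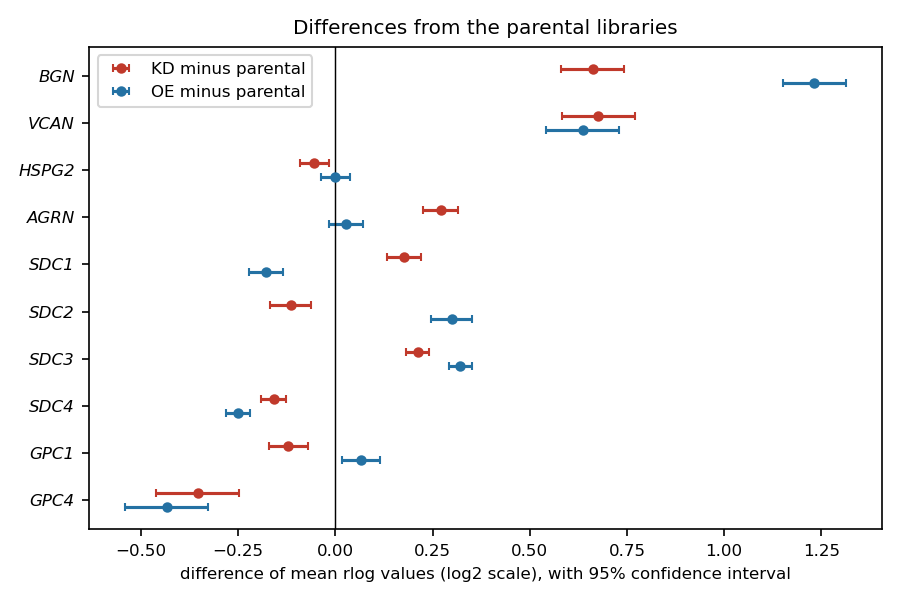
Difference of mean rlog values (log2 scale) from the parental libraries for each member, in KD (red) and OE (blue), with 95% confidence intervals from the limma fit over 9 libraries. SDC1, SDC2 and GPC1 have KD and OE on opposite sides of 0, and BGN lies at 0.66 in KD and 1.23 in OE.

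Levels of different genes can be compared after the log2 of the exonic length in kilobases is subtracted. On this per-length scale the parental order was SDC4 (11.32), SDC3 (10.04), AGRN (9.32), SDC1 (9.19), GPC1 (8.79), HSPG2 (8.76), SDC2 (8.43), BGN (5.98), VCAN (3.59) and GPC4 (3.56), a span of 7.76. The neighbours GPC1 and HSPG2 (SD 0.027 and 0.036), and VCAN and GPC4 (SD 0.037 and 0.014), did not differ beyond their spread in the parental libraries. In the KD-labelled libraries GPC1 (8.67) was below HSPG2 (8.70), again within the spread, and the other places were the same in all 3 groups. The place of GPC1 also depends on the length used: with the longest transcript it stood at 9.60, above SDC1 at 9.33 and HSPG2 at 9.09. By the mean of all 9 libraries, and so with the OE values that chose BGN included, SDC4 was above 97.7% of all genes per length, SDC3 above 94.5%, BGN above 60.0% and GPC4 above 32.5%.

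**Figure D3:**
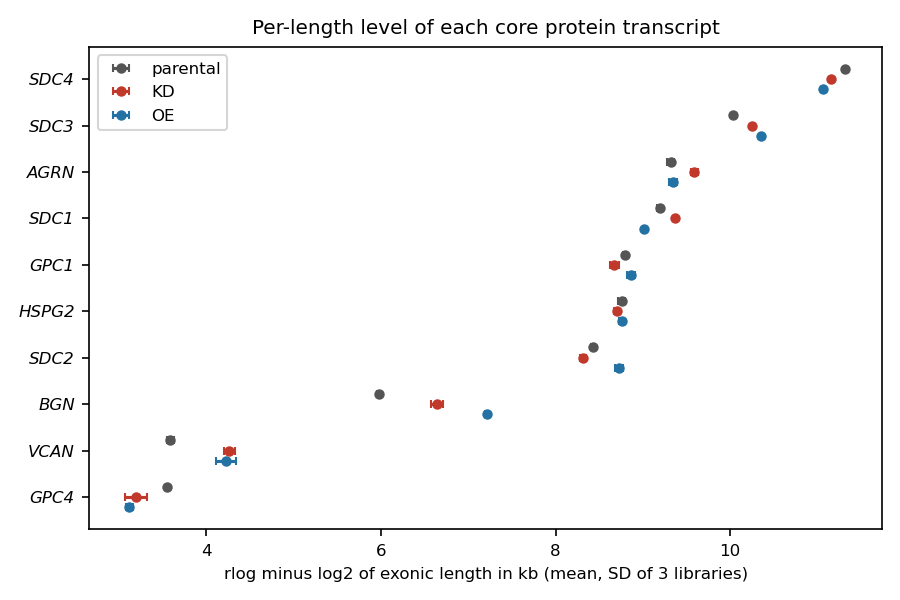
Per-length level of each member (rlog minus log2 of exonic kilobases) in parental, KD and OE libraries, as mean and SD of 3 libraries. The 7 members from SDC4 to SDC2 lie above 8, and BGN, VCAN and GPC4 lie below them in every group.

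Genes whose mean-centred values over the 9 libraries lay nearest to those of BGN, by root mean square difference among 13970 genes, were TMEM45A (0.12), EEF1A2 (0.13), PPFIA4 (0.14), C4orf47 (0.14) and C14orf132 (0.15). The same measure for BGN from its own mean was 0.50. EEF1A2 differed from parental by 0.38 in KD and 1.08 in OE, and PPFIA4 by 0.96 and 1.28. VCAN had the largest difference of the members in KD, though it exceeded BGN by less than its SE and stood below it (0.61 against 0.67) with 20-Mb block medians removed. Nearest to VCAN were PDK1 (0.063), NHSL1-AS1 (0.075), TXNIP (0.078), ENSG00000288043 (0.082) and NFATC4 (0.082), against 0.32 for VCAN itself. PDK1, a mitochondrial kinase that inhibits pyruvate dehydrogenase, differed by 0.60 in KD and 0.59 in OE.

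**Figure D4:**
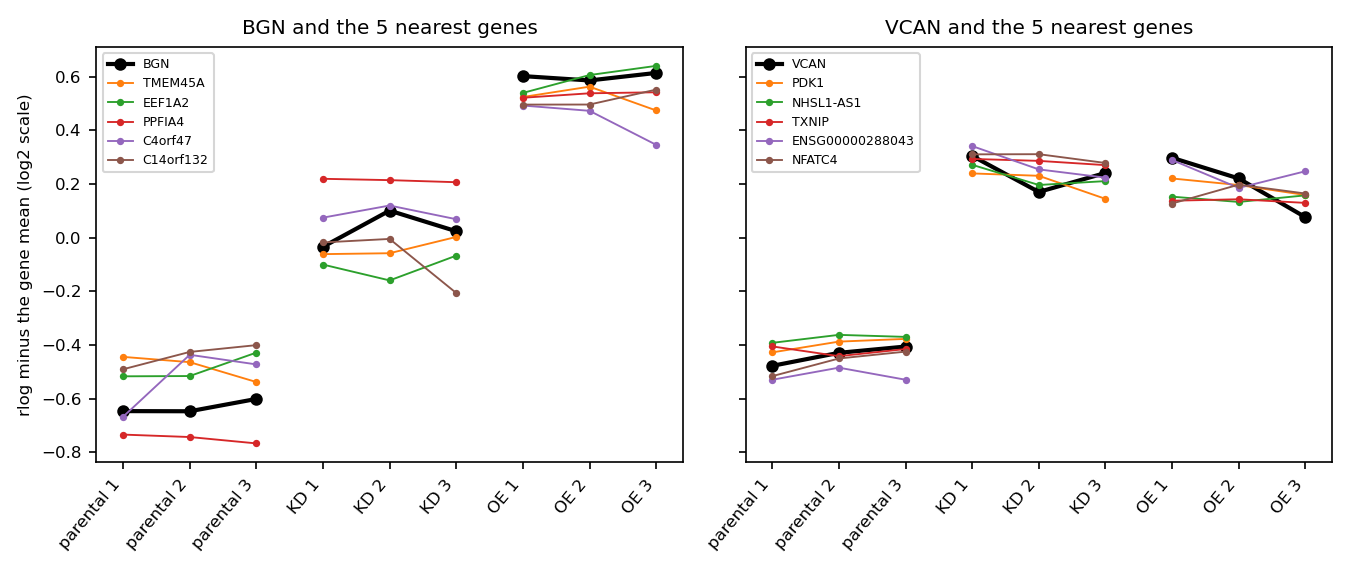
Mean-centred rlog values (log2 scale) in the 9 libraries for BGN and for VCAN (thick black) with the 5 nearest genes of each. BGN and its neighbours step up from parental to KD to OE, while VCAN and its neighbours are raised in both KD and OE. VCAN, PDK1 and ENSG00000288043 overlap between KD and OE, whereas NHSL1-AS1, TXNIP and NFATC4 lie higher in KD.

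Some markers of fibroblasts, mesenchymal and Schwann cells differed between the same groups as BGN and VCAN. Of 12 such genes 10 had values, of which limma called 3 higher in KD and 5 higher in OE at an adjusted p under 0.05, beside 26.9% and 16.9% of all genes, and the share in KD is near that background. Their summed antilog levels were 60844, 60832 and 60660 in the parental libraries, 81137, 81691 and 81032 under KD, and 69816, 68669 and 70101 under OE, so the sum was highest in KD whereas BGN was highest in OE. Vimentin (VIM), the most abundant, made up 86.8% of that sum. Without it the sums were 6592 to 6848 in the parental, 11708 to 11807 in the KD-labelled and 9496 to 9533 in the OE-labelled libraries. The transcription factor PRRX1 rose by 1.29 in KD (limma adjusted p = 3.1e-31) and was 0.69 higher in OE, while the fibroblast collagens COL1A2 and COL3A1 were near the floor at parental means of 1.35 and 1.16 and COL1A1 was low at 4.21. Between the OE- and KD-labelled libraries, limma called 2 of the 10 higher under OE, SNAI2 and S100B, beside 23.5% of all genes. It called 3 lower, PRRX1, TWIST1 and VIM, beside 23.8%, and the call of TWIST1 was lost without OE replicate 2. Against parental, SNAI2 differed by 0.069 in KD and 0.34 in OE, and S100B by 0.0057 and 0.29, so both were highest in OE. THY1 and SOX10 had no value. The part of these genes in the result for BGN and VCAN was not tested.

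The other genes of the pathway were taken as 8 lists with 138 genes, of which 119 had values. In KD, 43 of the 119 were called higher and 50 lower by limma at an adjusted p under 0.05, beside 26.9% and 26.9% of all genes. In OE 30 were higher and 32 lower, beside 16.9% and 18.0%, and the counts of single lists below are to be read against the same shares. Their median difference was -0.012 in KD and -0.00062 in OE, beside -0.00051 and 0.00039 over all genes. For OE, calls are given below as counts and single genes as differences without a p, since that contrast chose BGN.

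Among core proteins of other proteoglycans, 24 of 33 had values, with 8 higher and 10 lower in KD (median -0.052) and 9 higher and 7 lower in OE (median 0.035). PTPRZ1, a receptor phosphatase whose ectodomain is the chondroitin sulfate proteoglycan phosphacan, had 10.51, 10.50 and 10.47 in the parental libraries, 9.94, 9.96 and 9.94 under KD and 11.16, 11.21 and 11.14 under OE. It was thus low in every KD-labelled and high in every OE-labelled library, with differences of -0.54 (limma adjusted p = 5.0e-19) and 0.68. SPOCK3, a testican of nervous tissue, rose most in KD, by 0.75 (limma adjusted p = 8.0e-14), and was 0.21 higher in OE. GPC5, a further glypican, differed by -0.53 in KD (limma adjusted p = 2.8e-11) and -0.36 in OE, the lowest of the list in OE. Serglycin (SRGN), a proteoglycan of secretory granules, was higher by 0.69 in KD and 0.42 in OE. The cartilage and brain proteoglycan aggrecan (ACAN) was 0.45 higher in KD and differed by -0.11 in OE, and CSPG4, also called NG2, by 0.25 and -0.065. Per length, by the mean of all 9 libraries, CD74, CSPG4 and CD44 stood above 99.8%, 99.1% and 98.0% of all genes. Decorin (DCN), the closest relative of biglycan, was low at a parental mean of 3.02, and its difference in KD was 0.059 (limma adjusted p = 0.133).

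The linkage region that joins every chain to its core protein is built by enzymes of which 7 of 7 had values. In KD 3 were higher and 2 lower (median 0.0011), and in OE 1 was higher and 2 lower (median -0.020). The xylosyltransferase XYLT1, which starts the linkage, rose by 0.17 in KD (limma adjusted p = 2.0e-04) and was 0.33 higher in OE. The xylose phosphatase PXYLP1 fell by 0.16 in KD (limma adjusted p = 1.4e-05), and the galactosyltransferase B3GALT6 differed by -0.19 in OE.

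For heparan sulfate, 19 of 23 genes of chain growth and modification had values, with 7 higher and 8 lower in KD (median -0.0017) and 3 higher and 7 lower in OE (median -0.0040). The sulfotransferases HS6ST3 and HS6ST2 stood at the ends in KD, the former with a difference of -0.62 (limma adjusted p = 2.9e-15) and the latter with 0.29 (limma adjusted p = 1.2e-10). The extracellular sulfatases, which remove sulfate from finished chains, differed from each other. SULF2 was lower in KD, by a difference of -0.61, and SULF1 was higher by 0.23 in KD and 0.33 in OE, the most of the list in OE. The chain polymerase EXT1 was also lower in KD (-0.56), and HS3ST1 was lowest in OE, with a difference of -0.31.

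For chondroitin and dermatan sulfate, the chains of biglycan and versican, 15 of 16 genes had values, with 4 higher and 9 lower in KD (median -0.12) and 1 higher and 6 lower in OE (median -0.058). The chain-initiating enzyme CSGALNACT1 had 10.48, 10.42 and 10.39 in the parental libraries, 11.05, 11.06 and 11.06 under KD and 10.52, 10.45 and 10.47 under OE. It was high in the KD-labelled libraries, with a difference of 0.63 (limma adjusted p = 2.8e-20), while OE and parental overlapped. The sulfotransferase CHST7 was the lowest in KD at -0.43 (limma adjusted p = 1.0e-09), and the polymerising factor CHPF2 the lowest in OE at -0.20. The single gene higher in OE, CHST15, differed by 0.10 at a parental mean of 3.44 and lost its call with libraries centred on their medians (0.082), with block medians removed (0.065), and without parental replicate 1 (0.090), parental replicate 2 (0.094) or OE replicate 1 (0.086). Of the 10 genes that supply sugar nucleotides and sulfate, 9 had values, with 5 higher and 4 lower in KD (median 0.12) and 4 higher and 1 lower in OE (median 0.040). The sulfate transporter SLC26A2 rose most in KD, by 0.25 (limma adjusted p = 2.9e-19), and BPNT2 differed by -0.099. In OE the ends were UGP2 at 0.13 and UGDH, which makes the glucuronic acid donor, at -0.10.

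**Figure D5:**
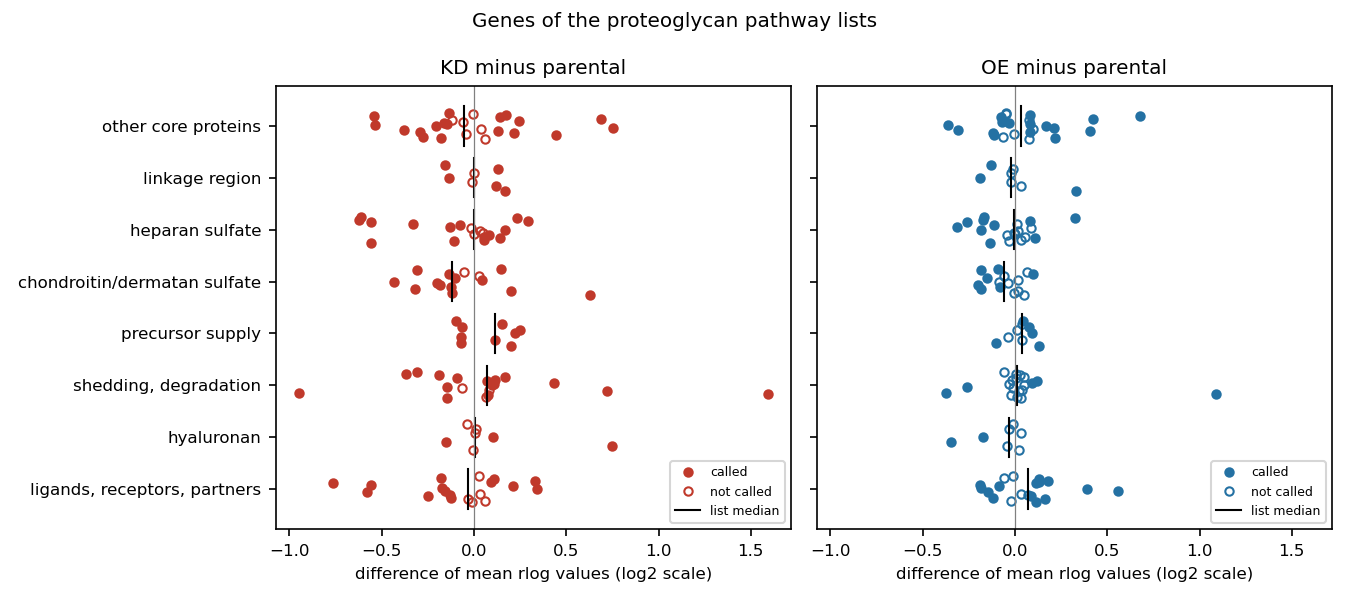
Difference of mean rlog values (log2 scale) from parental for each gene of the 8 pathway lists, in KD (left) and OE (right). Filled points are genes called at a limma adjusted p under 0.05, open points are the others, and black bars are list medians; ADAMTS4 lies farthest right in both panels, at 1.59 and 1.09.

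Among sheddases, core protein proteases and chain-degrading enzymes, 19 of 21 had values, with 9 higher and 7 lower in KD (median 0.072) and 3 higher and 2 lower in OE (median 0.0087). ADAMTS4, a protease that cleaves aggrecan and versican, had 8.43, 8.40 and 8.52 in the parental libraries, 9.999, 10.04 and 10.08 under KD and 9.49, 9.57 and 9.55 under OE. ADAMTS9, a protease of the same family, had 10.67, 10.65 and 10.67, then 9.72, 9.73 and 9.71, then 10.31, 10.30 and 10.26. For both genes the 3 groups were separate, with OE between parental and KD, and they moved in opposite directions. ADAMTS4 was higher by 1.59 in KD (limma adjusted p = 1.6e-27) and 1.09 in OE, and ADAMTS9 differed by -0.95 in KD (limma adjusted p = 4.5e-25) and -0.38 in OE. Heparanase (HPSE), which cuts heparan sulfate, was 0.72 higher in KD (limma adjusted p = 6.8e-16) and 0.023 in OE.

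Hyaluronan, the chain that versican and aggrecan bind, is made by the HAS enzymes, and 7 of the 8 genes of this list had values, with 2 higher and 1 lower in KD (median 0.0061) and 0 higher and 2 lower in OE (median -0.031; at an unadjusted limma p under 0.05, 0 were higher in OE). HAS2 had 7.87, 7.82 and 7.86 in the parental libraries, 8.61, 8.55 and 8.63 under KD and 7.83, 7.82 and 7.78 under OE. It was high in the KD-labelled libraries, with a difference of 0.75 (limma adjusted p = 1.2e-17), and OE lay at or near the parental range. HAS3 was lower in both lines, with differences of -0.15 in KD (limma adjusted p = 2.2e-04) and -0.34 in OE, and HAS1 was near the floor at a parental mean of 1.20.

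Of 20 ligands, receptors and cytoplasmic partners of proteoglycans 19 had values, with 5 higher and 9 lower in KD (median -0.034) and 9 higher and 5 lower in OE (median 0.070). The growth factor receptor FGFR3 fell most in KD, with a difference of -0.76 (limma adjusted p = 1.0e-17). In OE it differed by 0.12, and the call was lost without parental replicate 3 (0.094) or without OE replicate 3 (0.078). The heparin-binding growth factors midkine (MDK) and pleiotrophin (PTN), both ligands of PTPRZ1 and syndecans, were on different sides in KD, with differences of -0.16 (limma adjusted p = 2.3e-05) and 0.34 (limma adjusted p = 4.0e-11). In OE both were higher, by 0.56 and 0.39. FGFR2 was lowest of the list in OE at -0.19, and its call was lost without OE replicate 3 (-0.13). Dystroglycan (DAG1), which binds perlecan and agrin, was lower in KD, with a difference of -0.58. TLR2, a receptor for biglycan, was low at a parental mean of 2.92, and TLR4 had no value.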

How the data were processed

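RNA from 9 libraries was sequenced after a TruSeq v2 preparation, which does not mark strand. Per the submitters' processing notes and methods, the authors trimmed reads with cutadapt (quality under 20 removed, reads under 36 bases dropped), aligned them to GRCh38 with HISAT2, counted them with featureCounts of Subread, removed genes with a total count under 10, and deposited regularised log2 values from DESeq2 for 22290 Ensembl genes. The annotation release is not stated, and 3 columns without values were not used. Symbols, coordinates and exonic lengths came from GENCODE (22195 identifiers matched). Upstream sequences came from RefSeq (GRCh38.p14).

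All genes were fitted together in limma 3.58.1 (R 4.3.3; group means over 9 libraries, variance trend, no covariate), with Benjamini-Hochberg adjustment over 22290 genes and calls at an adjusted p under 0.05. The procedure was tested on simulated data. Depth per library cannot be read from rlog values, so no counting interval is given. Alternatives were a fit without variance trend, a mean rlog of at least 5, median centring, quantile normalisation, removal of the median of each 20-Mb block, only the groups compared, a replicate block, and leaving out each library. Of the cell type markers first listed, 3 were left out of all counts and sums, whatever their values. The members and lists were chosen with earlier results of these data known. Genes named were the members, TRAP1, the largest riser and faller of each list in KD and in OE, genes needed to state an absence, and the 5 nearest profiles to BGN and to VCAN. ACAN, CSPG4, CD44, CD74, SRGN, EXT1, SULF1, SULF2, HPSE, LRP4, DAG1, MDK in KD, PTN in OE and SPOCK3 in OE were chosen after their values were seen. SNAI2, TWIST1, LUM, GPC2, GPC6, COL18A1 and BCAN were chosen in the same way.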

Additional observations from a re-analysis of the deposited data

Results flagged for a closer look

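Among the 10 members, only SDC1 and SDC2 had all KD-labelled and all OE-labelled libraries on opposite sides of the parental ones. The pattern was not particular to them. Of the other core proteins, PTPRZ1, LUM, GPC2, GPC6 and COL18A1 were likewise below parental in KD and above it in OE. ACAN, BCAN, CSPG4 and CD74 were above it in KD and below it in OE. The share of all genes with this pattern was not counted. For SDC1 the difference between OE and KD was -0.35 ± 0.022 (SE, n = 3 per group, limma adjusted p = 3.7e-15), with the KD libraries at 11.20 to 11.24 and the OE libraries at 10.85 to 10.88. For SDC2 it was 0.41 ± 0.026 (SE, limma adjusted p = 4.4e-15), with the KD libraries at 10.32 to 10.38 and the OE libraries at 10.71 to 10.79. The differences of GPC1 also had opposite signs, -0.12 in KD and 0.065 in OE, but its OE libraries overlapped the parental ones. These comparisons rest on the labels, which TRAP1 itself did not follow. Its OE libraries overlapped the parental ones and all lay below the KD libraries, by a difference of -0.12 (limma adjusted p = 1.5e-04). Groups of 3 libraries were not tested for outlying libraries.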

How the results depend on the processing

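The counts of genes, members and pathway genes called stayed within 1.5 times the reported ones under every alternative run. Members called numbered 9 to 10 in KD, 7 to 9 in OE and 7 to 8 between OE and KD. With a replicate block, 12015 genes were called in KD, 7854 in OE and 10623 between OE and KD, against 11980, 7764 and 10552 without it. Correlations of deviations between same-numbered libraries ran from -0.071 to 0.14, and 2 of 9 exceeded 0.1. Between differently numbered libraries they ran from -0.14 to 0.075, and 0 of 18 exceeded 0.1. The 2 high pairs were KD with OE, replicates 1 (0.12) and 3 (0.14), while same-numbered pairs with a parental library reached at most 0.013. Replicate numbers thus gave at most a weak pairing, between KD and OE. Values that changed sign were those of TRAP1 in OE against parental, -3.9e-05 with libraries centred on their medians and -0.012 without OE replicate 3 (up to 0.042 without OE replicate 2, and 0.060 with an adjusted p of 0.0495 in limma with 20-Mb block medians removed), and of VCAN between OE and KD, 0.020 without OE replicate 3 (down to -0.090 without OE replicate 1). None of the values that changed sign was called, and the cause was not tested. The calls lost for HSPG2, SDC4 and GPC1, and the call gained for AGRN, are given with those genes. Shrinkage in the rlog values, an unknown read depth per library, the lack of strand and 3 libraries a group from isolations not said to be separate cultures limit all differences.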

Other observations

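Of 9 epithelial, endothelial and blood cell markers 7 had values. The endothelial and platelet adhesion molecule PECAM1 rose in the KD-labelled libraries, with a difference from parental of 0.47 ± 0.030 (SE, n = 3 per group, limma adjusted p = 7.8e-15), and had a difference of -0.28 ± 0.030 in the OE-labelled ones. Other endothelial markers were low, CDH5 at a parental mean of 0.63 and VWF at 4.96, as were the blood cell marker PTPRC at 2.65 and the epithelial marker EPCAM at 2.59. VWF was higher in KD, by 0.21 ± 0.047 (SE, limma adjusted p = 3.1e-04), and differed by 0.062 in OE. The keratin KRT8 was higher by 0.39 in KD (limma adjusted p = 7.1e-12) and 0.40 in OE. KRT18, which made up 76.6% of the summed level of these markers, differed by 0.037 in KD (limma adjusted p = 0.0817) and -0.096 in OE. CDH1 and CD3E had no value. The Schwann cell gene S100B had a parental mean of 11.09, and it differed by 0.0057 in KD (limma adjusted p = 0.843; 0.097 and 2.5e-04 with 20-Mb block medians removed) and 0.29 in OE. At a limma adjusted p under 0.05, 2 of the 10 measured adrenergic neuroblastoma markers were higher and 5 lower under KD, beside 26.9% and 26.9% of all genes, and 2 were lower under OE, beside 18.0%. These counts depend on single libraries. Without OE replicate 2, or with libraries centred on their medians, GATA2 and CHGA were also called lower under OE. MYCN, higher under KD, lost its call without parental replicate 2 (limma adjusted p = 0.123). CHGB lost its call in 6 alternatives under KD and in 2 under OE. Their summed antilog levels were 1590 to 1629 in the parental, 1462 to 1499 in the KD-labelled and 1496 to 1582 in the OE-labelled libraries.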
